A study of Mus musculus with 8 samples.

Results

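The genes described here are 9 markers of the early nervous system, Olig2, Ncam1, Nes, Map2, Pax6, Sox1, Sox11, Msx1 and Nefl, read in mouse embryonic stem cells with and without a deletion of Prmt5. They were taken by symbol, and all 9 were found among the 38991 genes of the deposited tables. RNA was sequenced from 8 libraries, 4 of iPKO cells, the Prmt5 knockout, and 4 of iPHet cells, the control genotype. Prmt5 encodes the arginine methyltransferase that modifies the Sm proteins of the spliceosome. Both genotypes were C57BL/6 stem cells derived from blastocysts of embryonic day 3.5 on mouse embryonic fibroblasts, below passage 20. Both were kept in 2i medium, which holds cells in the naive ground state, with 0.5 µM of the inhibitor PD0325901 for all 8 libraries. Both also received 2 µM 4-hydroxytamoxifen for 48 hours and then fresh medium, so the controls carry the drug as well. Most experiments used 1 male line per genotype, PC4 for iPKO and PC1 for iPHet, so genotype and line cannot be told apart. How many intact Prmt5 alleles the iPHet cells hold is not given in the labels. Nor do the labels state that the 4 libraries of a genotype are separate cultures, so the spread behind each p-value may be a technical one.

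The neuroectoderm is the sheet of embryonic cells that becomes the brain and spinal cord. Sox1 is among the earliest transcription factors specific to it, and Pax6, Olig2 and Msx1 are transcription factors that pattern its regions. Nes and Nefl encode intermediate filament proteins of neural progenitors and of neurons, Map2 a protein bound to microtubules of dendrites, and Ncam1 a cell adhesion molecule. Naive stem cells have not entered this lineage, and such markers are used to look for cells that have begun to differentiate.

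Summed values per library ran from 411827 to 417539 FPKM in iPKO and from 417672 to 458856 FPKM in iPHet. FPKM is the fragment count corrected for the length of the transcript and for how many fragments a library has. Prmt5 itself averaged 13.4 ± 1.56 FPKM in iPKO and 62.5 ± 10.4 FPKM in iPHet (SD, n = 4 each), which left 21.5% of the control level. All 12 embryonic stem cell markers were high enough to be tested. Of these Sox2 and Dppa3 fell, to 70.1 and 19.7 FPKM in iPKO, against 91.8 and 28.4 FPKM in iPHet (limma adjusted p of 0.00539 and 0.0162), and the other 10 were not called. Of all tested genes, 9.53% were called lower in iPKO and 6.3% higher. Esrrb averaged 224 FPKM in iPKO and 257 FPKM in iPHet, and Zfp42 averaged 36.6 FPKM in iPKO and 43.0 FPKM in iPHet (limma adjusted p of 0.0834 and 0.131). Nanog averaged 319 FPKM in iPKO and 313 FPKM in iPHet, and Pou5f1 averaged 260.3 FPKM in iPKO and 297.5 FPKM in iPHet. Libraries 1 and 3, and libraries 2 and 4, of a genotype resembled each other more than they did the others. The SD of their log2 differences over all tested genes was 0.305 to 0.409 within these 4 pairs and 0.573 to 0.66 in the 8 other pairs of a genotype. Between an iPKO and an iPHet library it was 0.614 to 0.639 where both numbers were odd or both even, and 0.654 to 0.691 otherwise. Odd-numbered and even-numbered libraries of a genotype thus differed about as much as the genotypes did. Values for libraries 1 and 3 (odd) and 2 and 4 (even) are therefore given beside the pooled ones.

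The 9 markers were low but most were not silent. Their summed level was 28.5 to 29.4 FPKM in the iPKO libraries and 42.7 to 47.8 FPKM in the iPHet libraries. This sum is uncertain, because it includes Olig2 and Sox11, whose FPKM lay at 1.78 to 1.99 times the middle of the authors' confidence bounds. In a bulk sample, fewer cells with a transcript and less of it per cell cannot be told apart. Of the 9 genes, 7 had a mean of at least 1 FPKM in a genotype and were tested. Pax6 and Msx1 were below that in both genotypes. The test was limma on log2(FPKM + 1) over 12462 genes, and a gene is called here at a Benjamini-Hochberg adjusted p under 0.05. On that scale the changes of low genes are understated.

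Of the 7 tested markers, Olig2, Ncam1, Nes and Map2 fell, 0 rose, and Sox1, Sox11 and Nefl were not called. With a correlation estimated within the alike libraries 0 of 7 were called (limma adjusted p of 0.168 to 0.339 for the 4 that fell). Over all tested genes, 9.53% were called lower in iPKO and 6.3% higher, 785 higher and 1188 lower in all. With libraries scaled to a common median these counts were 954 higher and 823 lower. The median log2 change of the 7 markers was -0.59, against -0.04 over all tested genes. The values of iPKO and iPHet did not overlap for any of the 7 tested markers, a state found in 25.1% of tested genes. In 6 of them iPKO was lower, as in 15% of tested genes, and in 1 it was higher, as in 10.1%. The markers were chosen with earlier results of these data known, so these comparisons with all genes only describe them.

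**Figure D1:**
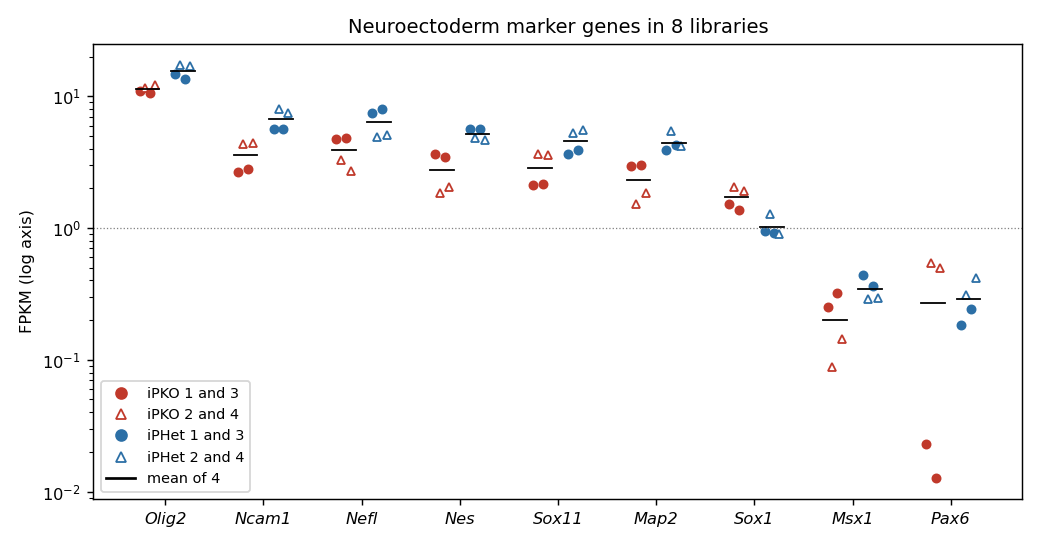
FPKM on a log axis for the 9 markers, ordered by their iPHet mean, with the 4 iPKO libraries left of the 4 iPHet libraries. Circles are libraries 1 and 3, open triangles libraries 2 and 4, bars the mean of 4, and the dotted line marks 1 FPKM. The 7 markers with a mean of at least 1 FPKM have separate groups, and Msx1 and Pax6 do not.

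Olig2, a basic helix-loop-helix factor of motor neuron and oligodendrocyte progenitors, was the most abundant marker. The gene (ENSMUSG00000039830) lies on chromosome 16 from 91225550 to 91228677 of mm10. It measured 10.9, 11.5, 10.6 and 12.2 FPKM in iPKO 1 to 4, against 14.8, 17.4, 13.6 and 17.0 FPKM in iPHet 1 to 4. Every iPKO library was below every iPHet library. The mean was 11.3 ± 0.708 FPKM in iPKO and 15.7 ± 1.79 FPKM in iPHet (SD, n = 4 each), so that 71.8% of the control level remained. The log2 change was -0.44 with an SE of 0.09 (limma adjusted p = 0.0147). The level placed Olig2 above 52.1% of tested genes in iPKO and above 60.4% in iPHet. It was called without any single library, but not with median scaling (limma adjusted p = 0.0534).

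The deposited Olig2 values have a peculiarity. In all 8 libraries the FPKM lay above the authors' own upper confidence bound, by a factor of 1.81 to 1.92 over the middle of the bounds. The middle of the bounds averaged 5.99 ± 0.373 FPKM in iPKO and 8.50 ± 0.956 FPKM in iPHet (SD, n = 4 each). Sox11 was alike, with all 8 values 1.78 to 1.99 times the middle of their bounds. Of genes at 1 FPKM or more, 14.7% to 19.9% lay above their upper bound in a library, and 21.7% to 29.1% lay outside their bounds on either side. The level of Olig2 is therefore uncertain, while its ratio between iPKO and iPHet was 0.718 from the FPKM and 0.705 from the middle of the bounds. With the middle of the bounds in place of FPKM for all genes, the log2 change of Olig2 was -0.44 (limma adjusted p = 0.0144).

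**Figure D2:**
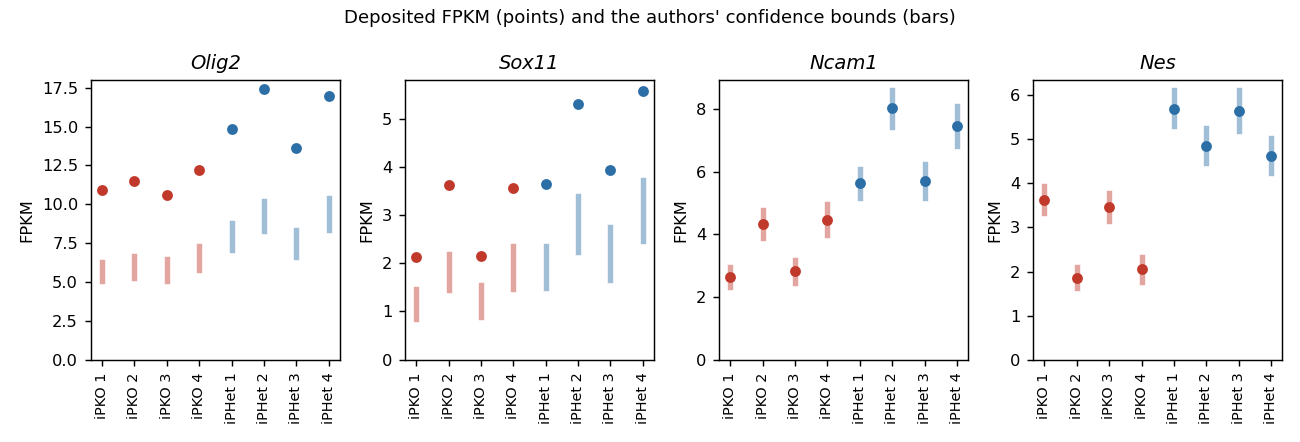
Deposited FPKM (points) and the authors' lower and upper confidence bounds (bars) in each library, iPKO in red and iPHet in blue, for Olig2, Sox11, Ncam1 and Nes. Points of Olig2 and Sox11 sit above their bars in all 8 libraries, and points of Ncam1 and Nes inside them.

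Ncam1 encodes the neural cell adhesion molecule (ENSMUSG00000039542, chromosome 9, 49504361 to 49798922 of mm10). It measured 2.64, 4.35, 2.82 and 4.46 FPKM in iPKO 1 to 4, against 5.63, 8.02, 5.70 and 7.47 FPKM in iPHet 1 to 4. Even-numbered libraries were the higher ones in both genotypes. The mean was 3.57 ± 0.969 FPKM in iPKO and 6.70 ± 1.22 FPKM in iPHet (SD, n = 4 each), and on the log2 scale Ncam1 fell by 0.77 (SE 0.17, limma adjusted p = 0.0224). The log2 change was -0.84 in the odd and -0.69 in the even libraries. In all 16 pairs of an iPKO with an iPHet library, the iPKO upper bound lay below the iPHet lower bound. The call ended without iPKO 1 or 3 or iPHet 2 or 4 (limma adjusted p of 0.0556 to 0.0636) and with quantile normalization (0.0592).

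Nes encodes nestin, the intermediate filament protein of neural progenitors (ENSMUSG00000004891, chromosome 3, 87971078 to 87980451 of mm10). It measured 3.63, 1.85, 3.46 and 2.05 FPKM in iPKO 1 to 4, against 5.69, 4.85, 5.64 and 4.63 FPKM in iPHet 1 to 4. Here the odd-numbered libraries were the higher ones in both genotypes, the reverse of Ncam1. The mean was 2.75 ± 0.927 FPKM in iPKO and 5.20 ± 0.544 FPKM in iPHet (SD, n = 4 each), and on the log2 scale Nes fell by 0.76 (SE 0.18, limma adjusted p = 0.0239). The log2 change was -0.55 in the odd and -0.96 in the even libraries, and all 16 pairs of libraries had separate bounds. The call ended without iPKO 4 or iPHet 1, 2 or 3 (limma adjusted p of 0.0504 to 0.0625).

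Map2 encodes a microtubule-associated protein of neuronal dendrites (ENSMUSG00000015222, chromosome 1, 66175273 to 66442583 of mm10). It measured 2.96, 1.52, 2.99 and 1.86 FPKM in iPKO 1 to 4, against 3.92, 5.45, 4.24 and 4.23 FPKM in iPHet 1 to 4. The even iPKO libraries were the lowest. The mean was 2.33 ± 0.757 FPKM in iPKO and 4.46 ± 0.678 FPKM in iPHet (SD, n = 4 each), and on the log2 scale Map2 fell by 0.73 (SE 0.17, limma adjusted p = 0.0257). Its size depended on the libraries more than for the other markers, at a log2 change of -0.35 in the odd and -1.12 in the even ones. The bounds were separate in 6 of 16 pairs of libraries. Map2 was not called with the replicate number as a block (limma adjusted p = 0.0516), or without iPKO 4 or iPHet 2, 3 or 4 (0.0559 to 0.0652).

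When libraries 1 and 3, and 2 and 4, of a genotype were averaged to give 2 values against 2, 0 of the 7 markers were called by limma (adjusted p of 0.519 to 0.536 for the 4 that fell). At an unadjusted p under 0.05 that fit held 4 of the 7, and 9.04% of all tested genes. In the fit with a correlation estimated within these pairs, 6 of 7 had an unadjusted p under 0.05, as did 12.6% of all tested genes.

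Sox1 was the 1 marker with a higher level in iPKO. It encodes a SoxB1 transcription factor of the neural plate (ENSMUSG00000096014, chromosome 8, 12395295 to 12400126 of mm10). It measured 1.51, 2.06, 1.37 and 1.91 FPKM in iPKO 1 to 4, against 0.951, 1.28, 0.921 and 0.896 FPKM in iPHet 1 to 4. The lowest iPKO library was above the highest iPHet library. The mean was 1.71 ± 0.325 FPKM in iPKO and 1.01 ± 0.178 FPKM in iPHet (SD, n = 4 each), a ratio of 1.69. The log2 change was 0.43 (SE 0.12, 95% interval 0.14 to 0.71), and Sox1 was not called (limma adjusted p = 0.0524). With the replicate number as a block it was called (limma adjusted p = 0.0306), as it was with a pseudocount of 0.1 FPKM (0.049). It was not called with quantile normalization (limma adjusted p = 0.146), median scaling (0.0623) or an estimated correlation within pairs (0.538).

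Sox11, a SoxC factor of newborn neurons, measured 2.12, 3.62, 2.16 and 3.57 FPKM in iPKO 1 to 4, against 3.65, 5.31, 3.94 and 5.57 FPKM in iPHet 1 to 4. The highest iPKO value was just below the lowest iPHet value, and even libraries were higher in both genotypes. The mean was 2.87 ± 0.843 FPKM in iPKO and 4.62 ± 0.964 FPKM in iPHet (SD, n = 4 each). The log2 change was -0.55 (95% interval -0.97 to -0.13, limma adjusted p = 0.0797), at -0.61 in the odd and -0.49 in the even libraries. With the replicate number as a block Sox11 was called (limma adjusted p = 0.00727). It was not called with quantile normalization (limma adjusted p = 0.1555) or an estimated correlation within pairs (0.343). The gene model in the files (ENSMUSG00000063632, chromosome 12, 27340697 to 27342709 of mm10) spans 2013 bases, while GENCODE M21 gives the gene 8311 bases, so its FPKM rests on part of the annotated gene.

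Nefl, the light chain of neurofilaments, measured 4.78, 3.27, 4.85 and 2.71 FPKM in iPKO 1 to 4, against 7.44, 4.87, 8.05 and 5.05 FPKM in iPHet 1 to 4. As for Nes, the odd libraries were higher in both genotypes, and the highest iPKO value (4.85) lay next to the lowest iPHet value (4.87). The mean was 3.90 ± 1.08 FPKM in iPKO and 6.35 ± 1.63 FPKM in iPHet (SD, n = 4 each). The log2 change was -0.59 (95% interval -1.05 to -0.12, limma adjusted p = 0.0897), at -0.59 in the odd and -0.58 in the even libraries. With the replicate number as a block Nefl was called (limma adjusted p = 0.00666). It was not called with quantile normalization (limma adjusted p = 0.0513) or an estimated correlation within pairs (0.391). The gene (ENSMUSG00000022055) lies on chromosome 14 from 68083863 to 68089095 of mm10, where it overlaps Nefm, listed at a mean of 0.286 FPKM.

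**Figure D3:**
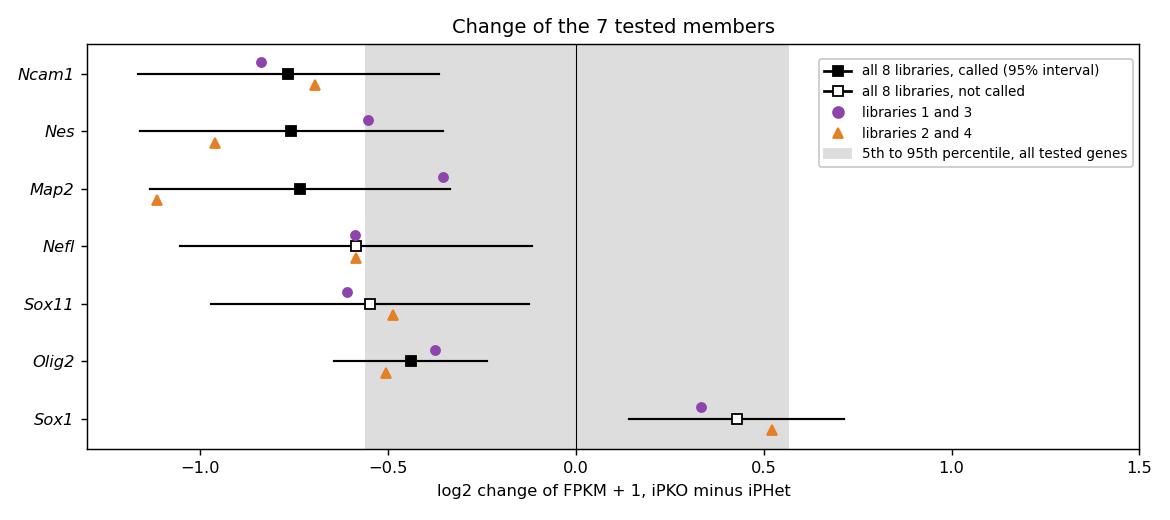
Log2 change of FPKM + 1, iPKO minus iPHet, for the 7 tested markers. Squares are the fit over 8 libraries (filled where called) with 95% intervals, circles and triangles the change within libraries 1 and 3 and within libraries 2 and 4, and the grey band holds the 5th to 95th percentile of all tested genes (-0.56 to 0.56). Odd and even libraries gave the same sign for all 7, as groups that do not overlap must, and were furthest apart for Map2.

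Pax6 and Msx1 stayed under 1 FPKM in all 8 libraries. Pax6, a paired-box factor of eye and forebrain (ENSMUSG00000027168, chromosome 2, 105668900 to 105697364 of mm10), measured 0.023, 0.546, 0.0126 and 0.499 FPKM in iPKO 1 to 4, against 0.183, 0.308, 0.241 and 0.415 FPKM in iPHet 1 to 4. By FPKM the odd iPKO libraries were the lowest of all and the even ones the highest. These values lay at 0.0426 to 0.712 of the middle of the authors' bounds, and iPKO 1 was below its lower bound. By the middle of the bounds Pax6 averaged 0.551 ± 0.298 FPKM in iPKO and 0.644 ± 0.173 FPKM in iPHet (SD, n = 4 each). The highest iPKO value was then 0.848 FPKM, barely below the highest iPHet value of 0.851 FPKM. By FPKM the log2 change of Pax6 had opposite signs, at -0.25 in the odd and 0.16 in the even libraries. An exact two-sided permutation test over the 8 libraries gave p = 0.829. Pax6 shares its locus in the files with Pax6os1 and with Elp4, whose means reach up to 7.75 FPKM, and without a stated strand reads of overlapping genes cannot be told apart. In GENCODE M21 Pax6os1 overlaps Pax6 and Elp4 does not.

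Msx1, a homeobox factor of the dorsal neural tube and a target of BMP signals, lies on chromosome 5 from 37820485 to 37824583 of mm10 (ENSMUSG00000048450). It measured 0.251, 0.0889, 0.324 and 0.143 FPKM in iPKO 1 to 4, against 0.441, 0.288, 0.360 and 0.295 FPKM in iPHet 1 to 4. The groups overlapped in 1 library, iPKO 3. The authors' lower bound was 0 in 2 of 4 iPKO libraries and in 0 of 4 iPHet libraries. The exact two-sided permutation test gave p = 0.0857.

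In order of level, iPHet cells had Olig2 first, then Ncam1, Nefl, Nes, Sox11 and Map2, then Sox1, Msx1 and Pax6. The neighbours from Ncam1 to Map2 in that order overlapped in their ranges over 4 libraries, as did Msx1 and Pax6, whereas Olig2 and Sox1 stood apart from their neighbours. In iPKO cells Map2 (1.52 to 2.99 FPKM) and Sox1 (1.37 to 2.06 FPKM) overlapped as well. By the middle of the bounds Sox11 would average 1.52 FPKM in iPKO and 2.51 FPKM in iPHet, which puts it below Map2 in both genotypes. By the same measure Pax6 was above Msx1 in iPHet, at 0.644 against 0.348 FPKM, and Olig2 in iPHet (7.47 to 9.37 FPKM) overlapped Ncam1 (5.63 to 8.02 FPKM) and Nefl (4.88 to 8.18 FPKM).

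For 7 of the 9 markers RefSeq (GRCm38.p6, the assembly of mm10) gave a promoter window of 250 bases before and 50 after the gene's start, 8 windows in all because Pax6 has a second start. All 8 held more CpG than the median window, with 16 to 37 of these dinucleotides against a median of 7 over 32851 windows. Their counts were above those of 67% of all windows (1 window of Pax6) to 94.4% (Map2 and Sox1). Of the markers that fell together, Olig2, Nes and Map2 had a window, and the bases ahead of the gene's start are shown to let their promoters be compared. Capitals mark 3 motifs on either strand, whose matches shared 0 bases with each other. The TATA box TATAAA was in 13.6% of all windows, the CAAT box CCAAT in 37.4% and the GC box GGGCGG in 35.7%. The sequences are those of the plus strand, on which all 3 genes lie, at chr16:91225300-91225549, chr3:87970843-87971077 and chr1:66175079-66175272.
Olig2: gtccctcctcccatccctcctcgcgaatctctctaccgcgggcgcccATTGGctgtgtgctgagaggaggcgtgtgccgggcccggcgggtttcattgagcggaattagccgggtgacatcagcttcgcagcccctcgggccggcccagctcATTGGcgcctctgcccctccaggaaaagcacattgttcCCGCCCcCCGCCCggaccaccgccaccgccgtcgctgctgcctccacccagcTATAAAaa
Nes: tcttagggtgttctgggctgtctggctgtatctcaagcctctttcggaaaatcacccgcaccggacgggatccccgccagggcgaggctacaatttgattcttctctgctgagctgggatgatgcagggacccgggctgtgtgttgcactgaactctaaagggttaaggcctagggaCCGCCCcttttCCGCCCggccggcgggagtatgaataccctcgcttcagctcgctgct
Map2: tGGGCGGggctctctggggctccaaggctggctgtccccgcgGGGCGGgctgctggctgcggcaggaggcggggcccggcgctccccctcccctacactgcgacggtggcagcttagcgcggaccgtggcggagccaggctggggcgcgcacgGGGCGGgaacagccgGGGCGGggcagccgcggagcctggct
The full windows held GGGCGG 2 times in Olig2, 2 times in Nes and 5 times in Map2. Olig2 alone of the 7 genes held TATAAA. That match begins 8 bases before the RefSeq start, and by GENCODE M21, which starts Olig2 at 91225457, it lies inside the gene. Whether it acts as a TATA box was not tested. The E-box CANNTG, present in 72.3% of all windows, was in none of the windows of Olig2, Nes and Map2.

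Sox1, the marker with the higher level in iPKO, held the octamer ATGCAAAT, which was in 1.74% of all windows and in no other marker's window. POU factors such as Pou5f1 are known to bind this motif. The octamer begins at base 19 after the RefSeq start and is shown in capitals with its neighbouring bases on the plus strand at chr8:12395526-12395555. The gene model in the files, like GENCODE M21, starts Sox1 earlier, at 12395295. By that model the octamer and most of the window lie inside the gene. A match of letters is no record of binding.
Sox1: gccagcgcgccATGCAAATcaccgccgccg

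By profile over the 8 libraries, the nearest genes were those with the smallest root mean square difference in centred log2(FPKM + 1), among protein-coding genes that reached a mean of 5 FPKM. For Olig2 these were Ints7, Maz and Slc38a10, at differences of 0.0442, 0.0477 and 0.0493. For Ncam1 they were Mthfd1l, Lmnb2 and Sox12, at 0.04, 0.0705 and 0.0899. For Nes they were AI464131, Acss1 and mt-Nd2, at 0.0527, 0.0544 and 0.0548. For Map2 they were Tdrd12, Nsun4 and Slc1a5, at 0.0917, 0.106 and 0.114. Mthfd1l averaged 10.6 FPKM in iPKO and 18.6 FPKM in iPHet, close to the ratio of Ncam1. A close ratio follows from the choice by profile over the same libraries.

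Related genes were read in 10 lists, 182 genes of which 111 were tested. Besides neural genes the lists hold wider groups that are not specific to the neural lineage. Among these are the BMP pathway, REST and CoREST, other Sox genes, and intermediate filaments with keratins and lamins. Of the 111 tested genes, 22 fell (19.8%) and 3 rose (2.7%), beside 9.53% and 6.3% of all tested genes. Cdh4 and En2, among those that fell, reached the limit for testing by their iPHet mean alone. The lists were chosen with earlier results of these data known, and no list was tested as a set. Alternatives were run on 66 genes, of which 30 were called. With pair averages 0 of these 30 were called by limma. With an estimated correlation within pairs 29 of the 30 were lost (adjusted p of 0.0619 to 0.499), and the 1 that held was Prmt5.

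**Figure D4:**
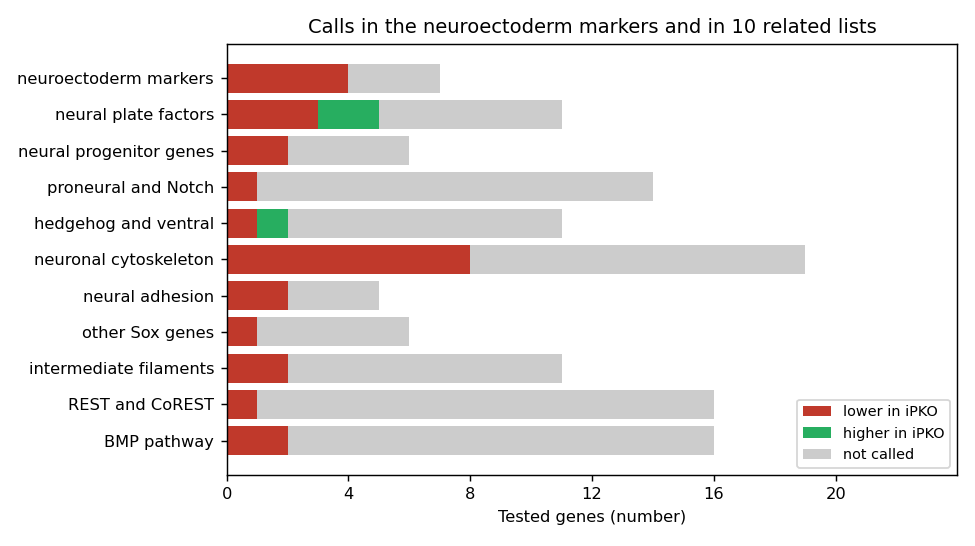
Number of tested genes called lower in iPKO, called higher in iPKO and not called, for the neuroectoderm markers and 10 related lists. The neuronal cytoskeleton list has the most calls, 8 lower of 19 tested, and higher calls appear in the neural plate and hedgehog lists. Over all tested genes 9.53% were called lower and 6.3% higher.

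The neuronal cytoskeleton list had the most falls, 8 of 19 tested genes with 0 higher, at a median log2 change of -0.42. The share called lower over all tested genes was 9.53%. Tuba1a, an alpha tubulin abundant in young neurons, averaged 72.5 ± 21.5 FPKM in iPKO and 167 ± 17.8 FPKM in iPHet (SD, n = 4 each, limma adjusted p = 0.00616). Tubb2b, a beta tubulin, averaged 29.8 ± 3.5 FPKM in iPKO and 48.2 ± 2.16 FPKM in iPHet (SD, n = 4 each, limma adjusted p = 0.00263). Kif5a, a kinesin motor of axons, fell to 5.56 FPKM in iPKO, against 7.43 FPKM in iPHet, and Dpysl2, a regulator of axon growth, to 5.87 FPKM in iPKO, against 8.18 FPKM in iPHet (limma adjusted p of 0.0128 and 0.019). Summed over the list, the level was 393 to 468 FPKM in iPKO libraries and 609.5 to 649.9 FPKM in iPHet libraries. Dpysl2 was not called without iPKO 2 or iPHet 1 or 3 (limma adjusted p of 0.0515 to 0.0539).

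Among 11 tested genes of the intermediate filament family, to which Nes and Nefl also belong, Ina and Lmnb2 fell and 0 rose. The 11 include keratins and nuclear lamins, and 9.53% of all tested genes were called lower. Ina, a filament protein of neurons, averaged 2.77 ± 0.23 FPKM in iPKO and 4.92 ± 1.30 FPKM in iPHet (SD, n = 4 each). Lmnb2, a nuclear lamin, averaged 23.1 ± 3.92 FPKM in iPKO and 38.7 ± 5.77 FPKM in iPHet (SD, n = 4 each). Vim, which assembles with nestin, was variable at 28.2 ± 20.8 FPKM in iPKO and 42.6 ± 13.5 FPKM in iPHet (SD, n = 4 each, limma adjusted p = 0.321). The Ina call ended on leaving out any iPKO library or iPHet 2 or 4 (limma adjusted p of 0.0561 to 0.0751), and with no filter, quantile or median scaling (0.0573 to 0.064).

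Adhesion and progenitor genes held further falls. Of 5 tested neural adhesion genes Cadm1 and Cdh4 fell, and of 6 tested progenitor genes Cdh2 and Prom1 fell, with 0 higher in either list. These few genes stand beside 9.53% lower and 6.3% higher over all tested genes. Cdh2, or N-cadherin, averaged 3.24 ± 1.05 FPKM in iPKO and 6.22 ± 1.13 FPKM in iPHet (SD, n = 4 each), close in level and ratio to Ncam1. Cadm1, an adhesion molecule of synapses, averaged 5.60 ± 0.357 FPKM in iPKO and 9.45 ± 2.11 FPKM in iPHet (SD, n = 4 each). Cdh4 averaged 0.515 FPKM in iPKO and 1.53 FPKM in iPHet, so it reached the limit for testing by its iPHet mean alone. The enzymes that add polysialic acid to NCAM, St8sia2 and St8sia4, averaged at most 0.034 FPKM in a genotype. Msi1, an RNA-binding protein of neural stem cells, was not called at 15.1 FPKM in iPKO and 21.5 FPKM in iPHet (limma adjusted p = 0.108). Single libraries ended the calls of Cadm1 (iPKO 1 or iPHet 4), Cdh4 (iPKO 1 or 4, iPHet 1 or 3), Cdh2 (iPKO 1 or 3, iPHet 2 or 4) and Prom1 (iPKO 2 or 4, iPHet 1, 2 or 3), with limma adjusted p up to 0.0555, 0.063, 0.0781 and 0.0598. Quantile scaling also ended Cadm1 (0.0529) and Cdh2 (0.065), and median scaling and no filter ended Cdh2 (0.0548 and 0.053). In even libraries alone Cdh4 was not called (0.0827).

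Of 11 tested neural plate factors 3 fell and 2 rose, at a median log2 change of -0.11, beside 9.53% and 6.3% of all tested genes. Otx2, a homeobox factor of epiblast and forebrain, averaged 6.63 ± 0.385 FPKM in iPKO and 2.47 ± 0.52 FPKM in iPHet (SD, n = 4 each, limma adjusted p = 0.000914). Meis2, named after its values were seen as the other that rose, averaged 10.5 FPKM in iPKO and 4.72 FPKM in iPHet (limma adjusted p = 0.0469). Zic2, En2 and Gbx2 fell, to 22.7, 0.801 and 1.37 FPKM in iPKO, against 32.4, 1.58 and 2.31 FPKM in iPHet. En2 reached the limit for testing by its iPHet mean alone. Six3 and Rax, factors of the anterior neural plate, were listed at 0 in all 8 libraries. Single libraries ended the calls of Meis2 (any except iPKO 4), Zic2 (any except iPKO 2 or 4) and Gbx2 (iPKO 1 or 3, iPHet 1, 3 or 4), with limma adjusted p up to 0.112, 0.0815 and 0.0605. Zic2 was also lost with no filter, quantile or median scaling (0.0505 to 0.0766), and Meis2 with no filter (0.0788) or no intensity trend (0.0501). In even libraries alone Gbx2 was not called (0.0699).

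Olig1, the neighbour of Olig2 at 41091 bases on chromosome 16, fell as well, to 18.2 ± 2.73 FPKM in iPKO, against 24.9 ± 2.21 FPKM in iPHet (SD, n = 4 each, limma adjusted p = 0.0351). Its ratio of 0.732 was near the 0.718 of Olig2. Leaving out iPKO 1 or 3 or any iPHet library ended the Olig1 call (limma adjusted p of 0.0574 to 0.0874), as did no filter, quantile or median scaling or even libraries alone (0.0532 to 0.0807). Of 11 tested genes of hedgehog signalling and ventral patterning, the pathway that turns on Olig2 in the spinal cord, Olig1 fell and Smo, the signal transducer, rose (4.39 FPKM in iPKO, 2.78 FPKM in iPHet, limma adjusted p = 0.0162). These are 1 of 11 each way, near the 9.53% lower and 6.3% higher of all tested genes. The ligand Shh averaged at most 0.018 FPKM in a genotype, and the target Gli1 9.05 FPKM in iPKO and 8.50 FPKM in iPHet (limma adjusted p = 0.59).

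Among other Sox genes, Sox2, the SoxB1 factor shared by stem cells and neural progenitors, averaged 70.1 ± 2.15 FPKM in iPKO and 91.8 ± 5.31 FPKM in iPHet (SD, n = 4 each, limma adjusted p = 0.00539). It was the 1 gene of 6 tested that was called, beside 15.8% of all tested genes called in either direction. Sox12, the SoxC relative of Sox11, was not called at 7.13 ± 1.92 FPKM in iPKO and 11.3 ± 2.24 FPKM in iPHet (SD, n = 4 each, limma adjusted p = 0.0661). Sox3, the other SoxB1 gene, averaged 0.049 FPKM in iPKO and 0.356 FPKM in iPHet and was below the limit for testing.

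Of 14 tested proneural and Notch genes Notch3 fell, to 7.36 ± 0.439 FPKM in iPKO, against 12.8 ± 0.70 FPKM in iPHet (SD, n = 4 each, limma adjusted p = 0.000774), and 0 rose. Of 16 tested BMP pathway genes Id4, a repressor of bHLH factors, and Smad1, a BMP effector, fell and 0 rose. These counts, 1 of 14 and 2 of 16, are near the 9.53% of all tested genes called lower. Id4 averaged 2.61 ± 0.238 FPKM in iPKO and 4.84 ± 0.675 FPKM in iPHet (SD, n = 4 each, limma adjusted p = 0.00467). Smad1 was not called with the replicate number as a block (limma adjusted p = 0.057), with no filter, quantile or median scaling, no intensity trend or the middle of the bounds (0.0512 to 0.066), in even libraries alone (0.129), or on leaving out any library but iPHet 2 (up to 0.111).

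REST, the repressor of neuronal genes outside the nervous system, acts with CoREST and the phosphatase Ctdsp1. Of 16 tested genes of this group Ctdsp1 fell, to 15.98 ± 2.33 FPKM in iPKO, against 23.3 ± 0.665 FPKM in iPHet (SD, n = 4 each, limma adjusted p = 0.0115), and 0 rose. That is 1 of 16, no more than the 9.53% of all tested genes called lower. Rest itself averaged 49.9 FPKM in iPKO and 54.5 FPKM in iPHet (limma adjusted p = 0.381).

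Markers of other cell types were read beside these values, and beside the 9.53% lower and 6.3% higher of all tested genes. Of 16 fibroblast genes, 5 were tested and 0 were called by limma, 2 having an unadjusted p under 0.05. Their summed level was 150.1 to 249.9 FPKM in iPKO libraries and 224 to 255 FPKM in iPHet libraries, most of it Fn1. Col5a1 averaged 0.554 ± 0.16 FPKM in iPKO and 1.197 ± 0.403 FPKM in iPHet (SD, n = 4 each, limma adjusted p = 0.0709), with no overlap of the groups, and Col1a1 0.212 FPKM in iPKO and 0.415 FPKM in iPHet. Twist1 and Pdgfrb had higher means in iPKO, 1.43 and 1.89 FPKM, against 0.821 and 1.14 FPKM in iPHet (limma adjusted p of 0.127 and 0.667). The collagen gene Col1a2 averaged 0.0038 FPKM in iPKO and 0.0043 FPKM in iPHet, and Lum and Postn were listed at 0 in all 8 libraries. Of 9 mesoderm genes 2 were tested, and Lefty2 fell to 110 ± 21.1 FPKM in iPKO, against 163 ± 22.7 FPKM in iPHet (SD, n = 4 each). That call ended on leaving out any library but iPKO 4 (limma adjusted p from 0.0503 up to 0.0953), and with no filter, quantile or median scaling (0.0594 to 0.0853). Eomes, the other tested mesoderm gene, averaged 12.2 ± 2.75 FPKM in iPKO and 7.51 ± 1.77 FPKM in iPHet (SD, n = 4 each) and was not called (limma adjusted p = 0.0567). It was called with the replicate number as a block (0.00332) and with quantile or median scaling (0.0252 and 0.0276). Of 3 tested endoderm genes 0 were called by limma (1 at an unadjusted p under 0.05), and of 3 tested trophoblast genes Ascl2 rose (7.02 FPKM in iPKO, 5.25 FPKM in iPHet, limma adjusted p = 0.00738). The part of such cells in the changes of the neuroectoderm markers was not tested.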

How the data were processed

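The authors deposited FPKM values per gene with lower and upper confidence bounds, 1 table per library, per the file headers. Reads were 100 bases, paired, from an Illumina TruSeq kit, per the labels' protocols, trimmed with Trimmomatic and set on mm10, per the submitters' processing notes. Aligner, quantifier, versions and strand: not given in the sources used here. The files hold no counts, so absolute depth is unknown. Relative depth, from the mode of ratios of values under 0.1 FPKM to those of iPHet 1, was lowest in iPHet 3 (0.774) and highest in iPKO 1 (1.24). Rows of 19 repeated identifiers were summed. Values were log2(FPKM + 1), genes needed a mean of at least 1 FPKM in a genotype, and limma 3.58.1 with an intensity trend was fitted in R 4.3.3 over 8 libraries without covariate and tested on simulated data. Deviations from the group means correlated at 0.104, 0.162, 0.204 and 0.107 between libraries numbered 1 to 4, all over 0.1. The pairing rests on the data and not on the labels, and iPKO 4 correlated more with iPHet 2 (0.124). Members and lists were chosen with earlier results of these data known. Named genes were the 9 markers, Prmt5, per list up to 4 genes by smallest p, and the 3 nearest profiles of 4 markers. Gli1, Rest, Meis2, Nanog, Pou5f1, Fn1 and the genes under the filter were named after their values were seen. Alternatives covered the pseudocount, filter, scaling, block, pairs and single libraries.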

Additional observations from a re-analysis of the deposited data

Results flagged for a closer look

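In the iPHet group Sox1 had 1 library far from the others. It measured 1.28 FPKM in iPHet 2 and 0.896 to 0.951 FPKM in the other iPHet libraries, a gap of 0.855 of the group's range, beyond Dixon's limit of 0.829 for 4 values. Of 20 groups examined (9 markers and Prmt5 in both genotypes), this was the 1 beyond the limit, and chance gives about 1 in 20.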

How the results depend on the processing

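The 7 tested markers kept the sign of their change in every alternative in which they were fitted. Because iPKO and iPHet did not overlap for any of them, leaving out, splitting or averaging libraries, or another pseudocount, could not change a sign. Of all genes 1973 were called, and 3427 with the replicate number as a block, 4729 with an odd/even term, 7 with pair averages, 52 with an estimated correlation within pairs, 5700 in the odd and 4932 in the even libraries alone. Of the markers 4 were called, and 7 with the odd/even term or in odd or even libraries alone, 0 with pair averages and 0 with the estimated correlation. The block called 6: it ended Map2 and added Sox1, Sox11 and Nefl. Of the 30 called among 66 genes refitted it ended 2, Map2 and Smad1, and no other. The cause of these differences was not tested. Leaving out 1 library gave 1264 to 1416 genes and 1 to 4 markers, the lowest without iPHet 4 and without iPHet 2. Pseudocounts of 0.1 and 0.5 FPKM, filters, quantile and median scaling, no intensity trend and the middle of the authors' bounds (chosen after the data were seen) gave 3 to 5 markers. Without counts the depth behind values under 1 FPKM, such as those of Pax6 and Msx1, is unknown.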
